A study of Mus musculus with 4 samples.

Results

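The genes of voltage-gated and potassium channels were examined in a survey of m6A in mouse cerebral cortex. The mark, N6-methyladenosine, is a methyl group on adenosines of RNA. In this assay RNA fragments are captured with an antibody against m6A and sequenced, and regions rich in captured fragments are called as peaks. Channel genes were all rows of the authors' deposited peak table whose symbol begins with Kcn, with Scn and a digit, with Cacn, or with Hcn and a digit, and symbols ending in os, ot or it (57 peaks of 2 genes) were left out. This gave 472 of 33977 peaks and 95 of 10415 genes. Potassium channels made up 300 peaks of 62 genes, calcium channels 90 peaks of 22 genes, sodium channels 60 peaks of 8 genes and the Hcn channels 22 peaks of 3 genes.

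The comparison was between 2 cortex libraries labelled TBI, for repetitive mild traumatic brain injury (rmTBI), and 2 cortex libraries labelled sham. The labels give total RNA and the same anti-m6A antibody for all 4 libraries, and each group has a library numbered 0 and a library numbered 1. What the numbers mean is not stated. The fold that the authors deposited sets number 1 over number 0 in rmTBI against the same ratio in sham, so whether the numbers are replicates or libraries of different kinds, such as captured and uncaptured RNA, is not settled here. The values of rmTBI over sham below treat both numbers as captured libraries of their group, as the labels do, and would mix kinds of library if the numbers differ in kind. The sources used here do not give strain, age, sex, injury protocol or time after injury. The labels do not say that the libraries came from separate mice, so p-values cover no more than library-to-library spread, possibly technical.

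Potassium channels let potassium leave the cell, which ends the action potential and holds the resting potential, and sodium channels start the action potential. Calcium channels admit the calcium that triggers transmitter release, and Hcn channels open on hyperpolarisation and carry an inward current that sets rhythmic firing. In mammals m6A is placed by the METTL3 complex at a short consensus with an invariant AC at its centre, most densely near stop codons and in 3′ untranslated regions (UTRs), and it is known to influence the stability, splicing and translation of the transcripts that carry it.

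Short sequences of 3 genes illustrate where such a consensus lay under channel peaks, and they are shown because they are the start windows under a channel peak that held its letters. The first 50 transcribed bases of channel genes were read from RefSeq (GRCm38.p6), and the letters GGAC, a common form of the m6A consensus, were searched on the transcript strand. GGAC occurred in 22 of 100 channel start windows and in 6194 of 32851 start windows of all genes (18.9%). Of the 20 channel windows under a peak of their gene, 3 held it, in Kcnj3, Kcns1 and Scn8a. Kcnj3 held it at 2 positions. Capitals mark GGAC in each 30-base stretch.
Kcnj3, chr2:55435970-55435999, plus strand: ctccatccatccgGGACaagcaaagggcgg
Kcnj3, chr2:55435985-55436014, plus strand: acaagcaaagggcGGACatggaataggaga
Kcns1, chr2:164171078-164171107, minus strand: cagcggggcctcgGGACagaaaacagtcca
Scn8a, chr15:100870657-100870686, plus strand: gtccggagcgccgGGACgcaggccggggag
All 4 stretches lay inside peaks that the authors class as 5′ UTR. A match is a description of the letters and not evidence of a methylated base.

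Channel peaks lay mostly in 3′ UTRs. By the authors' classes 51.7% of channel peaks were in 3′ UTRs, 39.8% in coding sequence and 8.47% in 5′ UTRs, against 39.7%, 50.4% and 6.24% of all peaks. None of the 472 was in the class NP_exon, which held 3.66% of all peaks. The share in 3′ UTRs was 63.6% for Hcn, 53.7% for potassium and 40.0% for sodium channels. Of the 95 genes, 75 had a 3′ UTR peak, 66 a coding peak and 26 a 5′ UTR peak.

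**Figure D1:**
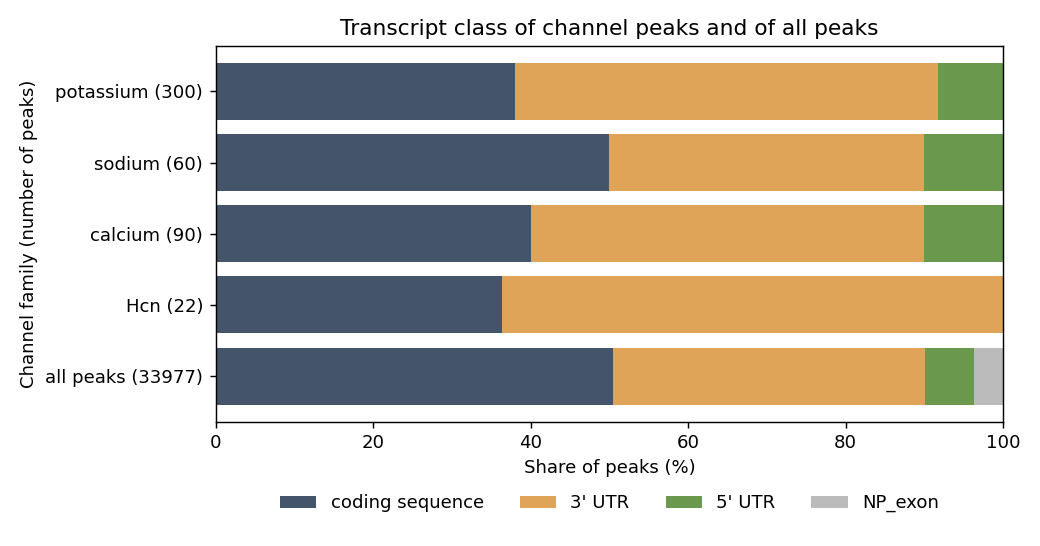
Share of peaks (x axis, %) in coding sequence, 3′ UTR, 5′ UTR and the class NP_exon for the 4 channel families and for all peaks, with the number of peaks beside each name. The 3′ UTR share runs from 63.6% in Hcn and 53.7% in potassium channels to 40.0% in sodium channels, against 39.7% of all peaks.

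Peaks were called by the authors apart in rmTBI and in sham and stacked, so that rows that overlap share reads. The 472 channel peaks comprise 227 of the rmTBI set and 245 of the sham set, and on the same strand they formed 283 overlap clusters. Both sets held 59.0% of these clusters, 16.6% were in the rmTBI set alone and 24.4% in the sham set alone, against 49.6%, 21.1% and 29.3% of all clusters. A gene had a median of 3 clusters. Kcnc1, which encodes the fast-deactivating pore subunit Kv3.1, had the most with 8, and 26 genes had 1.

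Reads in this table were not told apart by strand. Of 201 pairs of rows on opposite strands that share at least 90% of both spans, 50 had equal counts in all 4 libraries. Peaks of 7 channel genes were listed on both strands, among them Cacna2d2, Kcna6, Kcnk2, Kcnmb4, Kcnn2 and Scn9a. Without regard to strand the channel peaks formed 272 regions, and Kcna6 had 3 in place of 7. Rows of another gene overlapped 8 channel peaks, which are uncertain, namely peaks of Scn9a with Gm13629, of Kcnn2 with A330093E20Rik, of Kcnk2 with A430027H14Rik and of Cacna1d with Chdh.

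The level of a peak is given as CPM, the TMM-scaled count relative to the library's total, and levels of different genes are compared only per kilobase of the peak's genomic span, which includes introns. On that scale the highest channel peak was in the 3′ UTR of Kcnj3, at 592 CPM per kb. Kcnj3 encodes GIRK1, a potassium channel opened by G proteins. Scn2a, the pore subunit of a sodium channel of the axon initial segment, reached 474 CPM per kb in coding sequence. Then came Cacna1e with 280, Scn1a with 275, Kcnj9 with 242 and Cacng3 with 199 CPM per kb. The least covered gene was Kcne2, with 0.429 CPM per kb at its single peak.

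The Kcnj3 peak at chr2:55597485-55597785 had 170 and 188 CPM in rmTBI libraries 0 and 1, against 156 and 200 CPM in sham libraries 0 and 1. The groups overlapped, and the log2 fold of rmTBI over sham was 0.01 ± 0.23 (SE). The Scn2a coding peak at chr2:65701794-65701914 had 66.9 and 50.1 CPM in rmTBI and 65.1 and 47.5 CPM in sham, with library 0 above library 1 in each group.

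The 4 libraries held 13753600 to 26888072 counts over the peaks, about as many in the rmTBI libraries numbered 0 and 1 (13753600 and 26888072) as in the sham libraries numbered 0 and 1 (14437317 and 26356562). No library is labelled as one without antibody, so counts at a peak do not separate methylation of a transcript from its abundance, and fewer cells of a type cannot be told apart from less RNA per cell. The tissue label was checked against markers. All 11 listed markers of cortical excitatory neurons were measured, and 9 were higher in rmTBI by their gene median. At 1 peak per gene, the one with the highest summed level, these markers summed to 1280 and 1370 CPM in rmTBI, against 901 and 1010 CPM in sham. Thalamic markers were present too: 11 of 12 were measured, all 11 lower in rmTBI, with sums of 147 and 161 CPM in rmTBI and 733 and 806 CPM in sham. Of 9 measured striatal markers, 8 were lower, with sums of 736 and 669 CPM in rmTBI and 1370 and 1260 CPM in sham. None of these markers was at 0 in a library at those peaks. Their part in the channel values below was not tested.

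The first comparison asked which channel transcripts had a different m6A signal after rmTBI. No channel peak was called. Of 467 channel peaks tested, 0 had an adjusted p under 0.05 in edgeR's quasi-likelihood F-test with Benjamini-Hochberg adjustment over 33415 peaks, where 0.0868% of all peaks did. DESeq2 called 1 channel peak, in Kcne2, and 0.401% of all peaks. With 1 library left out, edgeR called the Kcne2 peak without rmTBI 0, without rmTBI 1 or without sham 0, and an Hcn4 peak without rmTBI 1. With library number as a block, edgeR called 147 channel peaks, 57 higher and 90 lower, and 10.6% of all peaks, but the labels do not say that the numbers pair the libraries. At an unadjusted p under 0.05, edgeR gave 36 channel peaks lower in rmTBI, in 24 clusters of 14 genes, and 3 higher, among them 1 in Kcnh1 and 1 in Kcnh7. Of all peaks, 2.84% passed that limit, 2.11% lower and 0.73% higher, and overlapping rows are not independent.

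Over all families, channel peaks separated the groups more often than peaks at large, mostly downward, and sodium channels did not share the downward lean. Both rmTBI libraries were below both sham libraries at 121 of 467 channel peaks (25.9%, against 12.3% of all peaks) and above them at 69 (14.8%, against 12.3%). With 1 row per cluster, the counts were 71 of 277 lower (25.6%, against 12.3% of all clusters) and 44 higher (15.9%, against 11.8%). Of 60 sodium peaks 9 were lower and 10 higher without overlap, and with 1 row per cluster 11.1% were lower and 16.7% higher. By gene, 10.6% of 94 channel genes had every peak lower without overlap (7.23% of all genes), and 3.19% had every peak higher (5.09% of all genes). The fold of rmTBI over sham had the same sign within number 0 and within number 1 at 356 peaks (76.2%, against 60.4% of all peaks). No test was made of these counts, which are over rows of 4 libraries.

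The median log2 fold of rmTBI over sham was -0.08 over channel peaks and 0.02 over all peaks. By family it was -0.14 for potassium, -0.07 for Hcn, -0.03 for calcium and 0.01 for sodium channels. The potassium median was -0.16 within number 0 and -0.09 within number 1. Peaks of the same gene tended to lie on 1 side. Taking 1 row per cluster, the one with the highest count, 68 channel genes had 2 or more tested clusters. Of these, 27 had every such row lower in rmTBI and 22 every such row higher. Together these made 72.1%, against 53.2% of all genes with 2 or more tested clusters. Of channel genes with 2 or more regions, strand ignored, 70.6% had all tested peaks on 1 side, against 47.7% of all such genes.

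**Figure D2:**
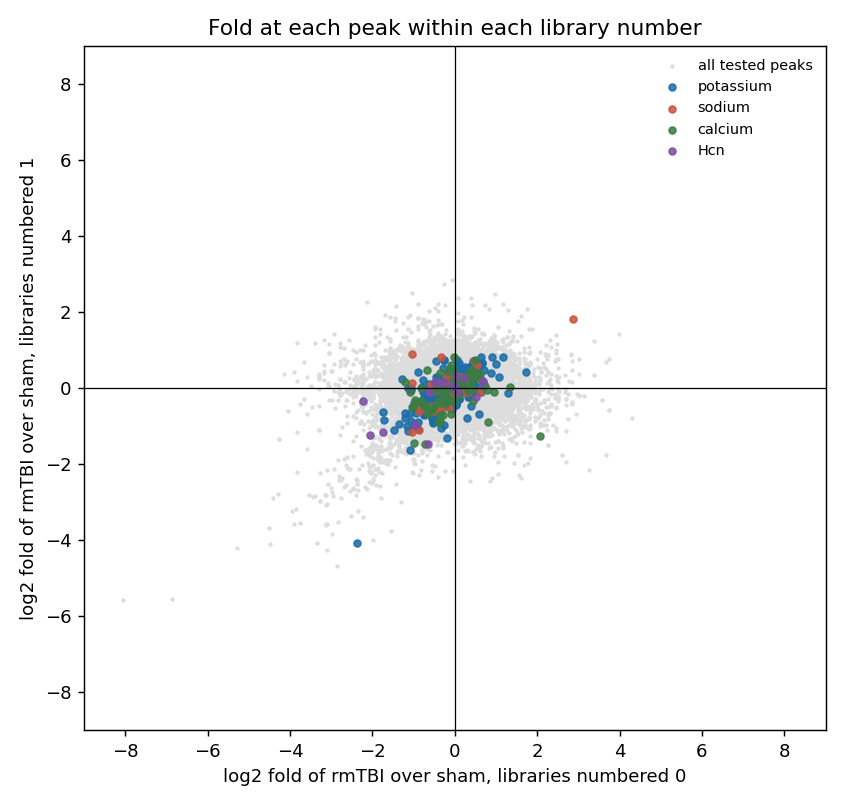
Log2 fold of rmTBI over sham at each tested peak, between the libraries numbered 0 (x axis) and between the libraries numbered 1 (y axis), with all peaks in grey and channel peaks coloured by family. Channel peaks lie in the quadrants of equal sign at 76.2%, against 60.4% of all peaks, and the point farthest to the lower left among them is Kcne2, at -2.38 and -4.07.

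**Figure D3:**
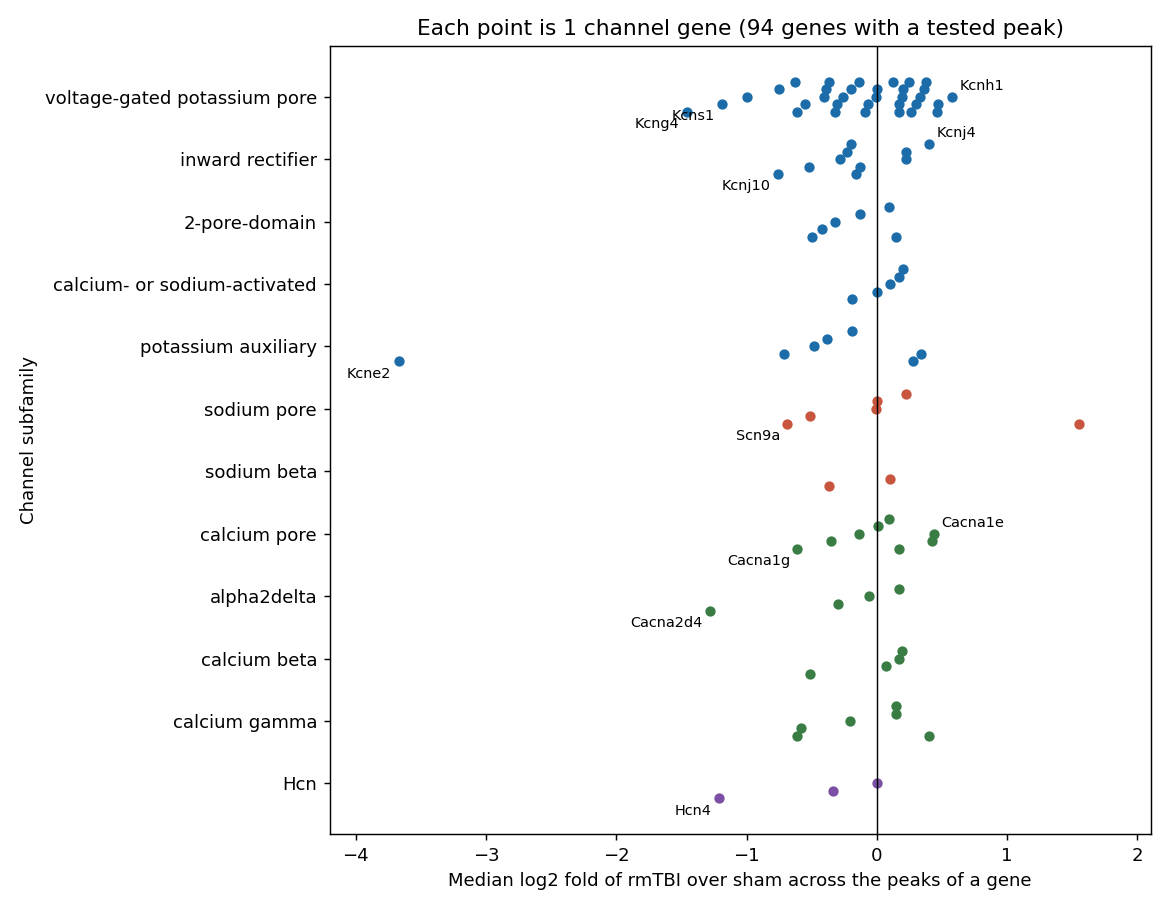
Median log2 fold of rmTBI over sham (x axis) over the peaks of each of 94 channel genes with a tested peak, grouped by subfamily (y axis) and coloured by family. Most genes lie within 1 of 0, and the lowest is Kcne2 at -3.67.

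Voltage-gated potassium pore subunits were the largest group, with 191 peaks of 33 genes and a median log2 fold of -0.09. In this group 49 of 190 tested peaks had both rmTBI libraries below both sham libraries (25.8%) and 33 had them above (17.4%), against 12.3% of all peaks each way. Genes named below beyond the naming rule were chosen after their values were seen. Counts of peaks of a single gene given below are over rows that can share reads. Those without overlap stand beside the same 12.3% of all peaks each way. All 7 peaks of Kcnc2, which encodes Kv3.2, a subunit of fast-spiking neurons, lay lower in rmTBI without overlap. Its 3′ UTR peak at chr10:112463610-112463820 had 2.73 and 2.41 CPM in rmTBI libraries 0 and 1, against 7.77 and 5.30 CPM in sham libraries 0 and 1. The log2 fold was -1.34 ± 0.32 (SE), and the adjusted p of edgeR's test with Benjamini-Hochberg adjustment was 0.556.

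The related subunit Kcnc1 (Kv3.1) was also lower at each of its 11 tested peaks, 6 of them without overlap, with a median of -0.41. Kcnc1 at chr7:46427752-46428262 had 24.5 and 26.7 CPM in rmTBI and 38.4 and 31.6 CPM in sham, with a log2 fold of -0.45 ± 0.25 (SE). The groups did not overlap at this peak. Kcnc4 (Kv3.4) ran the other way, with 4 of 4 peaks higher and a gene median of 0.38, and its groups did not overlap at 1 of them.

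The Shaker subunits lay on both sides. Kcna1 and Kcna2, which encode the axonal subunits Kv1.1 and Kv1.2, were lower in rmTBI at 11 of 11 and 12 of 12 peaks. Their gene medians were -0.20 and -0.32, and the groups did not overlap at 4 and 6 of the peaks. Kcna4 (Kv1.4) was lower at 9 of 9 peaks, 6 of them without overlap, with a median of -0.61. Kcna6 (Kv1.6) was lower at 15 of 15 peaks by a smaller median of -0.09, and the groups did not overlap at 1 of them. These peaks form 3 regions without regard to strand and share reads. The log2 fold at the described Kcna6 peak ran from -0.76 to 0.09 on leaving out 1 library. Kcna3 and Kcna5 were higher by their medians, 0.26 and 0.25, with 1 of 5 peaks not overlapping between the groups.

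The Shab subunit Kcnb2 (Kv2.2), a delayed rectifier, was higher in rmTBI at 8 of 8 peaks, with a median of 0.47, and at 3 of them without overlap. The silent subunit Kcnv1, which modifies Kv2 channels, was higher at 7 of 7 peaks with a median of 0.46. Kcnf1, another silent subunit, was higher at 5 of 5 with a median of 0.36. The groups did not overlap at 5 of the Kcnv1 peaks and 1 of the Kcnf1 peaks. Kcns1 and Kcng4, silent subunits with 1 peak each, were lower with log2 folds of -1.19 ± 0.47 and -1.46 ± 0.49 (SE).

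Kcnh1, which encodes the ether-à-go-go channel Kv10.1, was higher in rmTBI at 7 of 7 peaks, with a median of 0.58. The groups did not overlap at 2 of these. The Kcnh1 coding peak at chr1:192505580-192505821 had 10.4 and 8.38 CPM in rmTBI and 6.63 and 4.68 CPM in sham, without overlap. Its log2 fold was 0.74 ± 0.30 (SE). Of the KCNQ subunits, which form the M-current channels, Kcnq3 was lower at 5 of 5 peaks with a median of -0.26. Kcnq5 was higher at 8 of 8 with a median of 0.17. The groups did not overlap at 2 of the Kcnq3 peaks and 3 of the Kcnq5 peaks. Kcnd2, the A-type subunit Kv4.2 of dendrites, was lower at 6 of 6 peaks without overlap, with a median of -0.37.

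Inward rectifiers had the lowest median of the potassium subfamilies, -0.23 over 53 peaks of 10 genes. It was -0.25 within number 0 and -0.20 within number 1. Without overlap 20 of the 53 (37.7%) were lower and 6 (11.3%) higher, against 12.3% of all peaks each way. Of those 20 lower rows, 11 belonged to Kcnj10 alone and can share reads. Kcnj10, which encodes Kir4.1, the channel by which astrocytes and oligodendrocytes take up potassium, was lower at 11 of 11 peaks, each without overlap. Its 3′ UTR peak at chr1:172371635-172372054 had 24.3 and 26.0 CPM in rmTBI libraries 0 and 1 and 41.3 and 42.1 CPM in sham libraries 0 and 1. The log2 fold was -0.73 ± 0.24 (SE), -0.76 within number 0 and -0.69 within number 1, and 8 of the 11 peaks in 4 clusters had an unadjusted p under 0.05 in edgeR's test. The adjusted p of that peak was 1 in edgeR's test with Benjamini-Hochberg adjustment.

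Markers of glia differed between the same libraries. All 7 measured oligodendrocyte markers of 9 were lower in rmTBI by their gene median, with sums of 403 and 360 CPM in rmTBI and 589 and 550 CPM in sham. Astrocyte markers had sums of 928 and 904 CPM in rmTBI and 891 and 861 CPM in sham, with 3 of 5 measured markers higher. No marker of either list was at 0, and their part in the Kcnj10 values was not tested. Kcnj16 (Kir5.1), a partner of Kir4.1, was lower at 4 of 4 peaks with a median of -0.23, and 2 of these were without overlap.

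The G-protein-gated subunits of neurons lay on both sides. Kcnj3 was lower at 7 of 9 peaks with a median of -0.13, and at 1 peak without overlap. Kcnj9 (GIRK3) was lower at 10 of 10, 4 of them without overlap, with a median of -0.20. Kcnj6 (GIRK2) was higher at 4 of 4, 3 of them without overlap, with a median of 0.22. Kcnj4, which encodes the strong rectifier Kir2.3, was higher at 3 of 3 peaks without overlap. At chr15:79484075-79485120 it had 62.7 and 55.8 CPM in rmTBI and 47.1 and 42.8 CPM in sham, with a log2 fold of 0.40 ± 0.24 (SE). Kcnj12 (Kir2.2) was lower at 3 of 3 peaks with a median of -0.52, but the libraries of the groups overlapped at each, and the log2 fold of -0.65 ± 0.47 (SE) at its described peak ran from -1.46 to -0.07 on leaving out 1 library.

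Among the leak channels with 2 pore domains per subunit, 8 of 23 peaks (34.8%) were lower without overlap and 1 (4.35%) was higher, against 12.3% of all peaks each way. Kcnk13 (THIK-1), best known from microglia, was lower at 5 of 5 peaks, 3 of them without overlap. Its 5′ UTR peak at chr12:99964797-99965418 had 1.14 and 1.30 CPM in rmTBI and 2.21 and 2.82 CPM in sham, without overlap and with a log2 fold of -1.04 ± 0.42 (SE). Microglial markers summed to 49.0 and 49.5 CPM in rmTBI and to 37.1 and 43.7 CPM in sham, with 5 of 6 measured markers higher. Their part in the Kcnk13 values was not tested. Kcnk1 (TWIK-1) was lower at 4 of 4 peaks without overlap, with a median of -0.32.

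Channels opened by calcium or sodium had a median of 0.04 over 13 peaks of 5 genes. A single one of these peaks, 7.69%, was higher without overlap and none was lower, against 12.3% of all peaks each way. Kcnma1, the large-conductance BK channel, had a gene median of 0.00. Kcnn1 and Kcnn3, small-conductance SK channels, had gene medians of 0.17 and -0.19, and their groups overlapped at each peak. Kcnn1 at chr8:70843846-70844237 had 2.05 and 2.73 CPM in rmTBI and 1.28 and 2.93 CPM in sham, so that its order turned between the numbers.

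Auxiliary subunits held the single largest difference. Kcne2, a beta subunit abundant in choroid plexus epithelium, had 6 and 4 counts in rmTBI libraries 0 and 1 and 39 and 108 counts in sham libraries 0 and 1 at its coding peak, chr16:92292418-92296692. These correspond to 0.455 and 0.144 CPM in rmTBI and 2.78 and 3.95 CPM in sham. The log2 fold was -3.67 ± 0.62 (SE), and the adjusted p was 0.176 in edgeR's test with Benjamini-Hochberg adjustment and 0.000328 in DESeq2. Of 5 measured markers of choroid plexus and ependyma of 6 listed, 4 were lower, with sums of 12.6 and 13.0 CPM in rmTBI and 41.4 and 43.3 CPM in sham. Prlr was at 0 in rmTBI library 0, Ttr was not measured, and their part in the Kcne2 value was not tested.

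The other auxiliary genes had smaller values. Kcnip3, a calcium-binding partner of Kv4 channels, was higher at 5 of 5 peaks with a median of 0.28. Kcnmb4, the neuronal beta subunit of the BK channel, was higher at 4 of 4 with a median of 0.34. The groups did not overlap at 4 of the Kcnip3 peaks and 1 of the Kcnmb4 peaks. The cytoplasmic beta subunits Kcnab1, Kcnab2 and Kcnab3 had medians of -0.71, -0.19 and -0.48. Kcne4 did not pass the filter on low counts and was not tested.

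**Figure D4:**
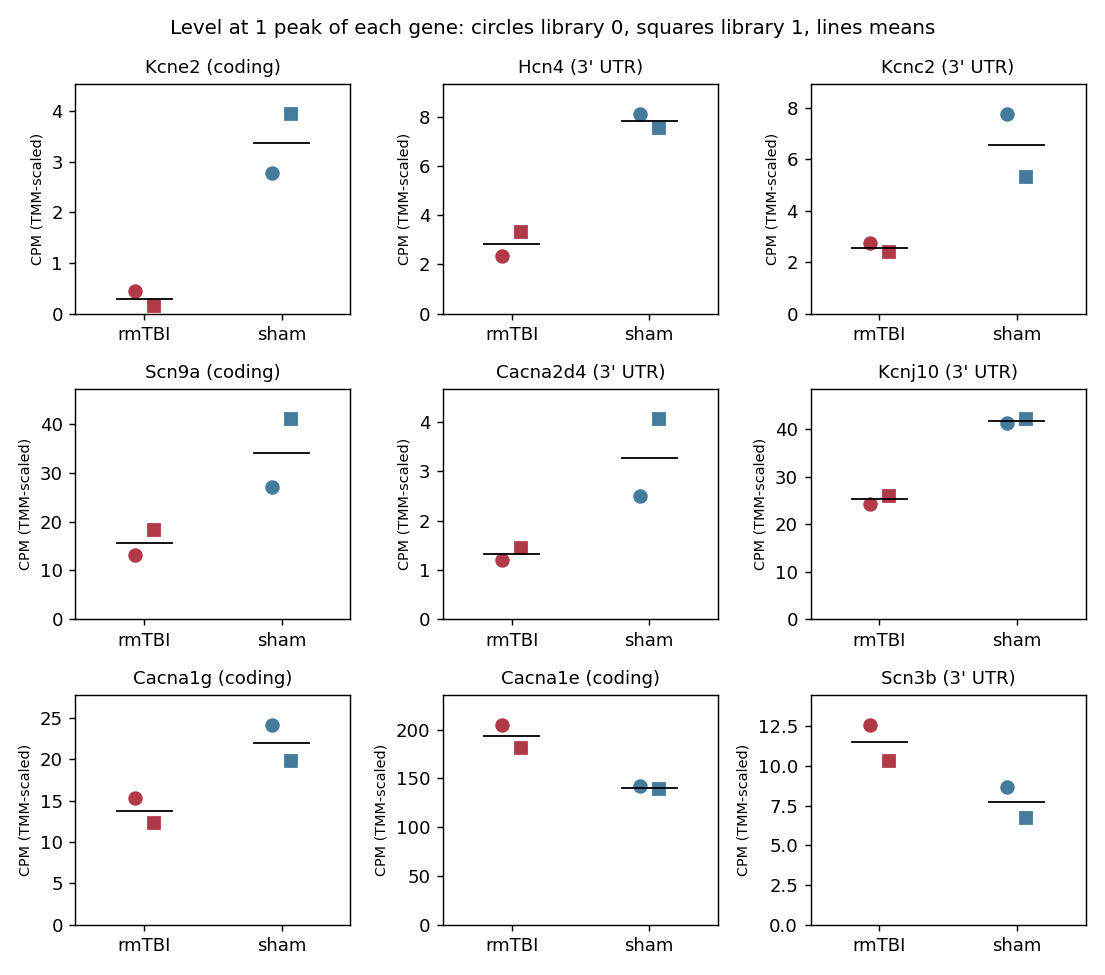
TMM-scaled CPM (y axes, each starting at 0) at 1 peak of 9 channel genes in the rmTBI libraries and the sham libraries, with circles for number 0, squares for number 1 and lines for group means of 2 libraries. In each panel the groups do not overlap: 7 genes are lower in rmTBI and 2, Cacna1e and Scn3b, are higher. The 9 genes were picked from the 33 named, and the groups overlapped at the described peaks of others, among them Kcnj12 and Cacnb2. Of all tested channel peaks 25.9% were lower and 14.8% higher without overlap, against 12.3% of all peaks each way.

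Sodium channels had a median log2 fold of 0.01, and their genes lay on both sides. Scn9a (Nav1.7) was lower in rmTBI at 6 of 6 peaks, 2 of them without overlap. At its coding peak, chr2:66543299-66547015, it had 13.2 and 18.2 CPM in rmTBI and 27.0 and 41.0 CPM in sham, without overlap. The log2 fold was -1.11 ± 0.31 (SE), with an adjusted p of 0.903 in edgeR's test with Benjamini-Hochberg adjustment. This peak overlaps a row of Gm13629, and the reads of both cannot be told apart.

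Scn1a (Nav1.1), a pore subunit prominent in inhibitory neurons, was lower at 8 of 8 peaks, 4 of them without overlap. Its median was -0.51. At chr2:66273323-66273504 it had 6.22 and 7.05 CPM in rmTBI and 11.4 and 10.8 CPM in sham, with a log2 fold of -0.73 ± 0.26 (SE). Interneuron markers had sums of 202 and 229 CPM in rmTBI and 154 and 163 CPM in sham, with 5 of 6 measured markers higher. Sst was lower, Gad1 and Pvalb were not measured, and the part of these markers in the Scn1a values was not tested. Scn2a (Nav1.2) was higher at 13 of 13 peaks, in 7 overlap clusters, with a median of 0.22. At 5 of these peaks the groups did not overlap, where 12.3% of all peaks were higher without overlap. Scn8a (Nav1.6) had a median of 0.00 over 11 peaks and Scn3a (Nav1.3) one of -0.01 over 9.

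The beta subunit Scn2b was lower at 4 of 4 peaks with a median of -0.37, and the groups overlapped at each. Scn3b was higher at 7 of 7, 2 of them without overlap, with a median of 0.10. At chr9:40291108-40291229 Scn3b had 12.6 and 10.3 CPM in rmTBI and 8.70 and 6.69 CPM in sham, without overlap.

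Calcium channel pore subunits had a median log2 fold of 0.03, with 11 of 40 peaks (27.5%) lower and 9 (22.5%) higher without overlap, against 12.3% of all peaks each way. The 3 T-type genes, whose channels open at low voltage, lay on different sides. Cacna1g (Cav3.1), known for its low-threshold current in thalamic relay neurons, was lower at 7 of 7 peaks, 6 of them without overlap. Its median was -0.61. At chr11:94433932-94434113 it had 15.3 and 12.3 CPM in rmTBI and 24.2 and 19.8 CPM in sham, without overlap and with a log2 fold of -0.67 ± 0.27 (SE). Cacna1h (Cav3.2) was higher at both peaks, without overlap and with a median of 0.42, and Cacna1i (Cav3.3) had a median of 0.01. Beside the Cacna1g values stand the thalamic marker sums above, which were lower in both rmTBI libraries, and their part in it was not tested.

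Cacna1e (Cav2.3), the R-type subunit, was higher at 8 of 8 peaks, 4 of them without overlap. At its coding peak, chr1:154467794-154471426, it had 205 and 181 CPM in rmTBI and 142 and 139 CPM in sham, without overlap and with a log2 fold of 0.46 ± 0.22 (SE). The P/Q-type Cacna1a and the N-type Cacna1b, which serve transmitter release, had medians of -0.14 and 0.09. Of the L-type genes, Cacna1c (Cav1.2) was lower at 6 of 6 peaks with a median of -0.35. Cacna1d (Cav1.3) was higher at 7 of 7 with a median of 0.17. The groups did not overlap at 3 of the Cacna1c peaks and 2 of the Cacna1d peaks.

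Among the subunits that accompany the calcium pore, Cacna2d4, an alpha2delta subunit known from the retina, was lower at both of its overlapping peaks. At chr6:119350312-119350732 it had 1.21 and 1.44 CPM in rmTBI and 2.50 and 4.06 CPM in sham, without overlap and with a log2 fold of -1.31 ± 0.42 (SE). The more abundant Cacna2d1 had a median of 0.17. The beta subunits, which bring the pore to the membrane, had medians from -0.51 in Cacnb2 to 0.19 in Cacnb1. The groups overlapped at all 10 of their peaks, where 12.3% of all peaks separate them in each direction.

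The gamma genes, several of which encode AMPA receptor auxiliary proteins known as TARPs, split. Cacng4, Cacng5 and Cacng2 had medians of -0.61, -0.58 and -0.21. The Cacng4 3′ UTR peak at chr11:107733522-107734121 had 19.5 and 17.6 CPM in rmTBI and 25.2 and 32.3 CPM in sham, without overlap and with a log2 fold of -0.64 ± 0.26 (SE). Cacng3 (gamma-3), enriched in cortex, was higher at 5 of 5 peaks with a median of 0.40, and the groups overlapped at each.

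Among the Hcn genes, Hcn4, a slowly opening subunit known from thalamus and heart pacemaker, was lower at 5 of 5 tested peaks. At 3 of these Hcn4 peaks the groups did not overlap. Its 3′ UTR peak at chr9:58862244-58862545 had 2.35 and 3.31 CPM in rmTBI libraries 0 and 1 and 8.13 and 7.53 CPM in sham libraries 0 and 1, without overlap. The log2 fold was -1.44 ± 0.30 (SE), -1.75 within number 0 and -1.16 within number 1, and the adjusted p was 0.358 in edgeR's test with Benjamini-Hochberg adjustment. The same lower thalamic sums stand beside Hcn4, and their part was likewise not tested. Hcn2 had a median of -0.34 over 3 peaks, and its coding peak at chr10:79724398-79724668 had 9.32 and 11.8 CPM in rmTBI and 14.5 and 12.7 CPM in sham. The groups did not overlap there, with a log2 fold of -0.36 ± 0.26 (SE).

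Genes whose proteins bind, anchor or regulate these channels were set beside them. Of 38 listed, 32 were measured, 15 higher and 17 lower by their gene median, with a median of -0.03. None of their 193 peaks was called in edgeR's test with Benjamini-Hochberg adjustment, where 0.0868% of all peaks were. At an unadjusted p under 0.05 a single peak, in Ank3, was lower, where 2.11% of all peaks were. Ank3 encodes ankyrin-G, the anchor of sodium and KCNQ channels at the axon initial segment, and its gene median was -0.12. Akap5, a scaffold that binds L-type calcium and KCNQ channels, had a median of 0.26. At its highest peak Akap5 had 1150 and 1310 CPM in rmTBI and 957 and 1090 CPM in sham. Akap5 and Ank3 were named after their values were seen.

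The second comparison was between the library numbers, whose meaning the sources used here do not state. With group in the model, 185 of 467 channel peaks (39.6%) had an adjusted p under 0.05 in edgeR's test with Benjamini-Hochberg adjustment, against 38.1% of all peaks. Higher in number 1 were 114 channel peaks and lower were 71, against 17.1% and 21.1% of all peaks. This model leaves 1 residual degree of freedom, and the calls describe these 4 libraries.

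The difference between the numbers varied with the class and the span of the peak. Its median log2 fold of number 1 over number 0 was 0.25 at channel 3′ UTR peaks and -0.02 at channel coding peaks, against 0.16 and -0.06 over all peaks of those classes. Peaks whose genomic span exceeded 5000 bases had a median of -0.64 over 27 channel peaks (-0.43 over all such peaks), and those under 1000 bases one of 0.15 (0.15 over all such peaks). The Hcn median was 0.39, the potassium median 0.15, the calcium median 0.14 and the sodium median -0.05.

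The Scn2a 3′ UTR peak at chr2:65764451-65765230 had 330 and 274 CPM in the rmTBI and sham libraries numbered 1, against 154 and 136 CPM in the rmTBI and sham libraries numbered 0. Its log2 fold of number 1 over number 0 was 1.05 ± 0.05 (SE). The Scn2a coding peak at chr2:65688730-65690201 went the other way, with -0.48 ± 0.05 (SE). Over the 13 Scn2a peaks, 9 of them coding, the median was -0.06. Cacnb2, with a gene median of 1.00, had 46.1 and 65.3 CPM in the rmTBI and sham libraries numbered 1 and 22.9 and 33.2 CPM in those numbered 0, at chr2:14985607-14986146. Kcnj12 had a median of 0.96, and Kcnn3, whose peaks are long coding spans, one of -0.86.

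**Figure D5:**
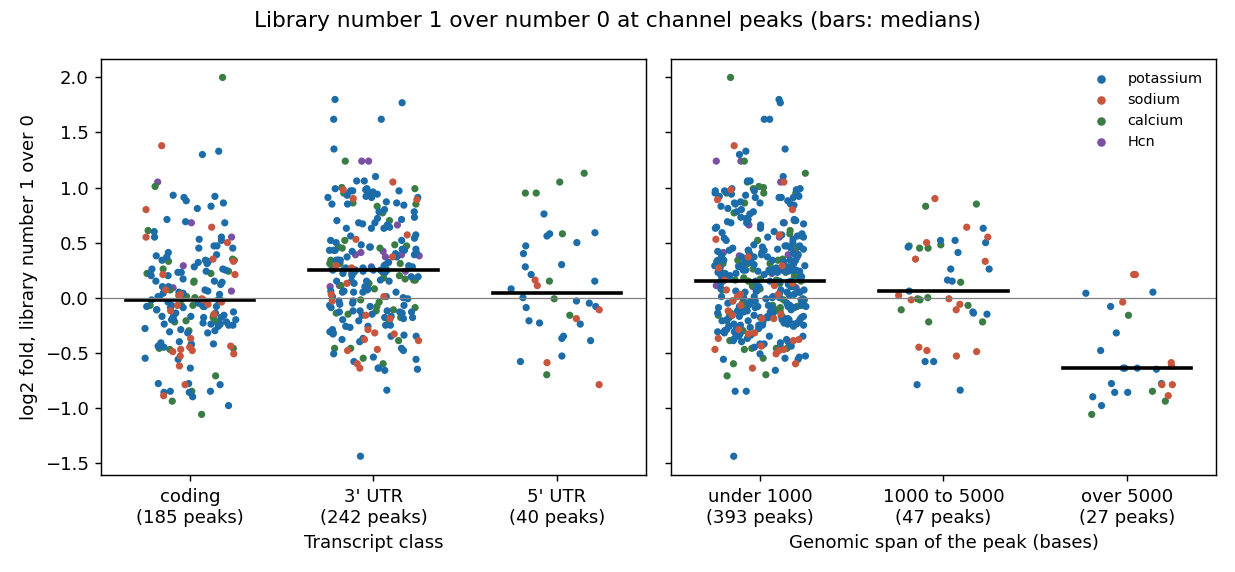
Log2 fold of library number 1 over number 0 (y axis) at the 467 tested channel peaks, by transcript class (left) and by genomic span in bases (right), coloured by family with bars at the medians. The median is 0.25 in 3′ UTRs and -0.02 in coding sequence, and -0.64 for the 27 peaks over 5000 bases.

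In the authors' deposited table the list of higher peaks contained 3 of the 472 channel peaks and that of lower peaks none, where the lists hold 0.815% and 0.43% of all peaks, so neither count stands apart from peaks at large. The authors' deposited table gave the Scn3a coding peak at chr2:65461307-65461548 a log2 fold of 1.24 with a p of 0.0196, and 2 overlapping 3′ UTR peaks of Kcnk13 log2 folds of 1.14 and 1.18. The adjusted p in the authors' deposited table was 0.998 at each of them. The deposited values follow the change from number 0 to number 1 in rmTBI relative to that in sham, so they are another quantity than the fold of rmTBI over sham. The Scn3a peak had 4.02 and 6.01 CPM in rmTBI libraries 0 and 1 and 8.34 and 5.45 CPM in sham libraries 0 and 1, and its groups overlapped. The larger Kcnk13 peak, at chr12:100061425-100061994, had 3.71 and 8.78 CPM in rmTBI libraries 0 and 1 and 7.91 and 8.78 CPM in sham libraries 0 and 1.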

How the data were processed

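The authors deposited 1 table of m6A peaks with unnormalized counts, whole numbers for each library, plus a log2 fold change and a raw and adjusted p-value for each peak from a test that is not named. Lists of higher and lower peaks were deposited with it. Per the submitters' processing notes, STAR, DESeq2 and the GRCm39 build were used; the sources used here name no versions, peak caller or counter. Of the channel peaks 98.3% overlapped the RefSeq span of their gene in GRCm38.p6, so coordinates are those of the table read as GRCm38.

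Groups came from the labels, with 2 libraries each. The test on counts was that of edgeR 4.0.16 under R 4.3.3 (TMM, filterByExpr, quasi-likelihood F-test, Benjamini-Hochberg adjustment over 33415 peaks, call at an adjusted p under 0.05), on 2 residual degrees of freedom, after a check on simulated counts. Levels are TMM-scaled CPM computed from the counts, the SE is the size of the log2 fold change divided by the square root of F, and folds within 1 library number use a prior count of 2 and have no test. Overlap clusters used bedtools 2.31.1 (at least 1 base, same strand). DESeq2 1.42.0, other scalings and filters, 1 row per cluster, library number as a block and leaving out each library were alternatives. Library totals give the depth, and intervals cover the spread between libraries only. How reads from near-identical paralogs were assigned is not given.

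The members, lists and tests were chosen with earlier results of these data known. Named genes were any called between the groups, the 4 with the smallest p, the 2 with most clusters and the 2 with the highest CPM per kb in the potassium, sodium and calcium families, the 2 with the highest and the 2 with the lowest median fold between library numbers in each (genes with at least 2 tested peaks), every Hcn gene and those in the deposited lists, each described at its peak with the smallest p unless another is named. Some genes that meet this rule are not reported here.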

Additional observations from a re-analysis of the deposited data

Results flagged for a closer look

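At the described peak of 4 of the 33 named channel genes, the log2 fold of rmTBI over sham had opposite signs within number 0 and within number 1, with 1 library against 1 in each case. For Scn3a it was -1.04 within number 0 and 0.14 within number 1. For Kcnn1 it was 0.64 within number 0 and -0.09 within number 1. For Cacna1i it was 0.33 within number 0 and -0.08 within number 1, and for Cacng3 it was -0.01 within number 0 and 0.81 within number 1. The difference between the numbers was not tested at these peaks, and the sources used here do not say what the numbers stand for.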

How the results depend on the processing

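Limits: 2 libraries per group, 39.6% of channel peaks called between the library numbers, and overlapping rows limit these results. With the library number as a replicate block, 147 of 467 channel peaks were called in edgeR's test (57 higher, 90 lower, in 44 genes), against 0 without it, where the block calls 10.6% of all peaks. The labels do not say that the numbers pair libraries, and the deviations of same-numbered libraries from their group means correlate at r = 0.483 over 33415 peaks, which with 2 libraries per group is a single value and does not settle it. Leaving out 1 library gave 0 to 2 calls: Kcne2 without rmTBI 0 or without sham 0, Kcne2 and Hcn4 without rmTBI 1, and none without sham 1. DESeq2 called 1, Kcne2. Between the numbers, 65 channel peaks were called without the group term and 114 with DESeq2, against 185. The median log2 fold of rmTBI over sham ranged from -0.23 to -0.04 for potassium and from -0.48 to 0.04 for Hcn when 1 library was left out, and was 0.04 for calcium as a median over genes. The median log2 fold of number 1 over number 0 was 0.25 for potassium, 0.05 for sodium and 0.24 for calcium with scaling by library totals. For sodium it was -0.16 within sham. For calcium it was 0.14 both in the main fit and with at least 10 counts in each library. With DESeq2 the calcium value was 0.12, within rmTBI 0.07 and within sham 0.08. The named genes Kcnn1, Cacnb2, Cacna1i, Kcna6 and Kcnn3 turned sign on leaving out 1 library, over ranges of -0.29 to 0.91 for Kcnn1, -1.11 to 0.06 for Cacnb2, -0.22 to 0.46 for Cacna1i, -0.76 to 0.09 for Kcna6 and -0.68 to 0.30 for Kcnn3. Their values were -0.29 without sham 0 and -0.08 without rmTBI 1 for Kcnn1, 0.06 without sham 1 for Cacnb2, -0.22 without rmTBI 0 for Cacna1i, 0.04 without sham 1 and 0.09 without rmTBI 0 for Kcna6, and 0.30 without sham 0 and 0.18 without rmTBI 1 for Kcnn3. On leaving out 1 library Kcnj12 ranged from -1.46 to -0.07, Kcnj9 from -0.67 to -0.03 and Scn3a from -0.77 to -0.12. The cause was not tested.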
